A study of Mus musculus with 12 samples.

Results

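Interferon-stimulated genes and the genes of antigen presentation on class I major histocompatibility complex (MHC) molecules were followed across 12 RNA-seq libraries of the mouse medial prefrontal cortex. The members were the entries of the deposited count table with 36 listed gene symbols, 31 of them interferon-stimulated genes and 5 of them genes of antigen presentation. The listed 36 symbols were all present among the 24411 in the table, and 36 passed the filter on low counts that left 15199 genes for testing. The libraries came from female mice of a C57BL/6J background, aged 8 to 12 weeks, that were wild type (WT) or lacked Cav3.1, a T-type calcium channel subunit encoded by Cacna1g (KO). Stressed mice underwent a forced swim or a tail suspension once a day for 5 days, and unstressed mice did not. This gave 4 groups, unstressed WT and stressed WT, then unstressed KO and stressed KO, with 3 libraries in each. Whether each library is a different animal is not stated in the labels, and p-values here measure only the spread between libraries, which may be technical. WT mice were bought from a commercial breeder and KO mice came from a repository, so genotype and colony cannot be told apart.

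Interferons are secreted proteins that warn cells of infection. Type I interferon binds a receptor whose kinases, Jak1 and Tyk2, activate transcription factors that include Stat2. Together with Irf9, Stat2 is part of a complex that binds the interferon-stimulated response element (ISRE) in the promoters of its target genes. Interferon gamma acts mainly through another promoter element, the gamma-activated sequence (GAS). The targets include sensors of foreign RNA, proteins that block translation or cut viral RNA, ubiquitin-like modifiers, and the machinery that loads peptides on class I MHC molecules. In brain tissue, interferon target genes are active at a low basal level, and microglia, endothelial cells and astrocytes are strong responders. Class I MHC molecules are also known for a role in synapse refinement.

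Promoters of the members were searched for the ISRE and the GAS. RefSeq promoter windows (build GRCm38.p6, 300 bases around a transcript start, most of them before it) were matched by symbol for 30 of the 36 members. Dhx58, Oas2, Usp18, Ifi27, Rtp4 and Parp14 had no window. An ISRE core was searched as GAAANNGAAA on both strands, so that TTTCNNTTTC marks it on the opposite strand. It was found in 15 of the 30 members (50.0%), against 3.44% of all 32851 windows and 3.61% of 11461 matched genes among those tested. A GAS core, TTCNNNGAA, was found in 6 of the 30 members, against 8.30% of all windows. In Bst2 a GAS match starting at -136 overlaps an ISRE match starting at -130, counted from the transcript start. The stretches below show ISRE core matches in the Ifit genes, of which Ifit3 and Ifit3b share reads, in Gbp2, which passed the test, and in the modifier Isg15 and the class I light chain B2m, which edgeR did not call. Each is 60 bases long and written 5′ to 3′ on the strand of the gene, with ISRE core matches in capitals. They lie at chr19:34640775-34640834 on the plus strand for Ifit1, chr19:34583363-34583422 on the plus strand for Ifit3 and chr19:34607759-34607818 on the plus strand for Ifit3b. Those of Isg15, Gbp2 and B2m lie at chr4:156200847-156200906 on the minus strand, chr3:142620594-142620653 on the plus strand and chr2:122147538-122147597 on the plus strand.
Ifit1: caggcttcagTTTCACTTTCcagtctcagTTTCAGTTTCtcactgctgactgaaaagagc
Ifit3: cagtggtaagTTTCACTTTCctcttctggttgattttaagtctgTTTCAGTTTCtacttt
Ifit3b: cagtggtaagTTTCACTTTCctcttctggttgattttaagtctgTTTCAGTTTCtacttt
Isg15: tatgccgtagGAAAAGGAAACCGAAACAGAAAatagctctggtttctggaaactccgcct
Gbp2: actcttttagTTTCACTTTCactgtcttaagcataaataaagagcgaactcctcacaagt
B2m: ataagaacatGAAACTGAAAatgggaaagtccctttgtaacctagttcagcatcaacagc
Ifit3 and Ifit3b were identical over all 60 bases, with 2 matches each. Ifit1 also had 2 matches but shared only 27 of 60 aligned bases with Ifit3. In Isg15 3 matches overlapped each other. A match is a description of the letters and not a measured binding site.

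**Figure D1:**
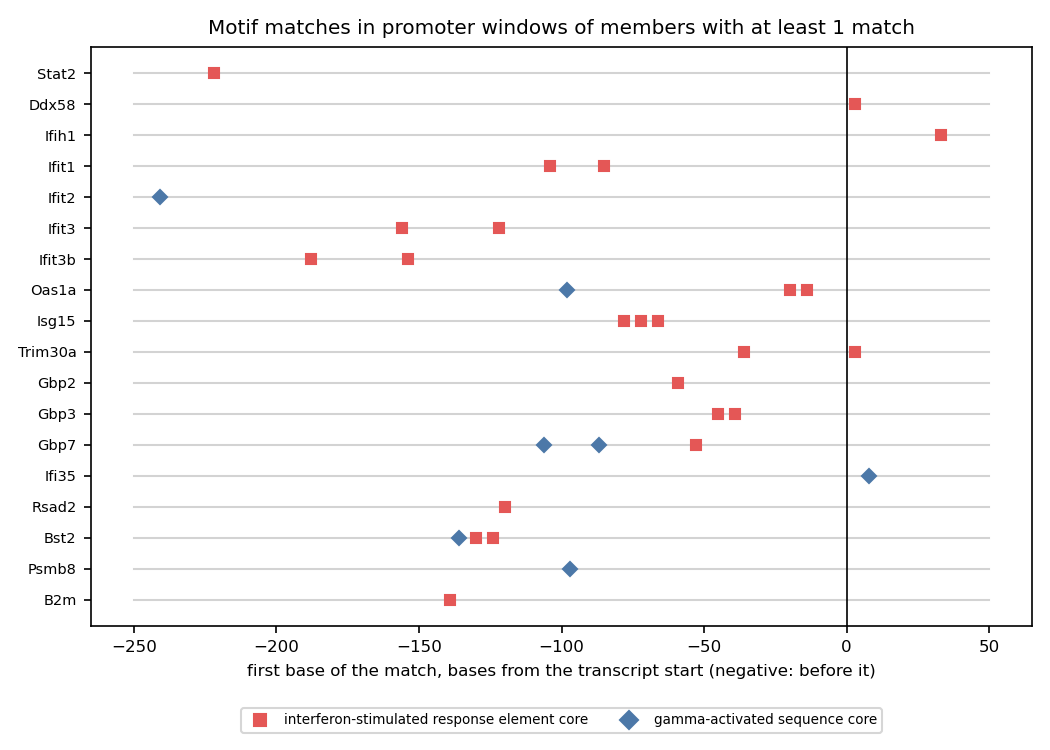
Positions of motif matches in the promoter windows of the members that had at least 1 match. The horizontal axis gives the first base of the match in bases from the transcript start, red squares are ISRE cores and blue diamonds are GAS cores. The 15 members with an ISRE core hold most of their matches within the stretch before the start, and Ddx58, Ifih1 and 1 of 2 Trim30a windows hold one after it.

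Total estimated counts ran from 15469590 to 31082240 per library, and 3 counts corresponded to 0.092 to 0.192 CPM (counts scaled to a common library size). Cacna1g was lower in KO than in WT, with log2 differences of -1.18 ± 0.09 (SE) without stress and -0.93 ± 0.09 with stress (edgeR adjusted p of 1.0e-04 and 5.2e-04). Its level was between 54.6 and 66 CPM in the 6 KO libraries and between 109 and 144 CPM in the 6 WT libraries. Markers of cortical excitatory neurons were present in every library, with Slc17a7, the vesicular glutamate transporter, at 1210 to 2070 CPM. Libraries 1 and 2 of unstressed WT stood apart, with an olfactory bulb marker score of 2.41 and 2.65 (mean log2 CPM of 14 genes relative to their mean over all libraries) against -1.64 to 0.42 elsewhere. Library 1 of stressed KO stood apart through striatal markers, with a score of 2.06 against -0.36 to 0.02 elsewhere. Many results that involve these libraries are given with and without them, and the others are given from the full fit only.

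Reads are hard to assign for some members, since parts of their transcripts are shared with close relatives. Counts with decimals, which arise where reads are divided between similar sequences, occurred in at least 6 libraries for 9 members: Ifit1, Ifit3, Ifit3b, Oas1a, Trim30a, Gbp3, Gbp7, H2-K1 and H2-D1. Their values are uncertain. Of the 50-base windows of their transcripts, Ifit3 shared 51.2% with Ifit3b, and Ifit3b shared 44.5% with Ifit3. Oas1a shared 57.6% with Oas1g, H2-D1 shared 5.44% with H2-K1, and Gbp3 shared 3.75% with Gbp7. Irf9, Irf7, Rtp4 and Tap1 overlap another tested gene (Rnf31, Phrf1, Masp1 and Psmb9), and whether the counting used strand is not given in the sources used here.

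The members covered a wide range of levels, and the interferons themselves were not detectable at this depth. Per kilobase of exon, B2m, the light chain of class I MHC molecules, was highest at 67.3 CPM per kb. Ifi27, a mitochondrial interferon-stimulated protein, followed at 12.7, H2-D1 at 12 and H2-K1 at 5.96 CPM per kb, both class I heavy chains. Oas2, which makes the oligoadenylates that activate RNase L, was lowest at 0.105 CPM per kb. Among 12 interferon genes in the table none was tested and none had more than 2 counts in a library. Ifnb1 had 0 counts in all 12 libraries, which allows up to 0.092 to 0.192 CPM per library, and Ifng had 5 counts in total. Markers of T, NK and B lymphocytes were near 0, with 10 genes summing to 0.299 to 0.826 CPM and none of the 10 passing the filter. In bulk tissue, fewer cells of a type and less RNA per cell cannot be told apart.

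**Figure D2:**
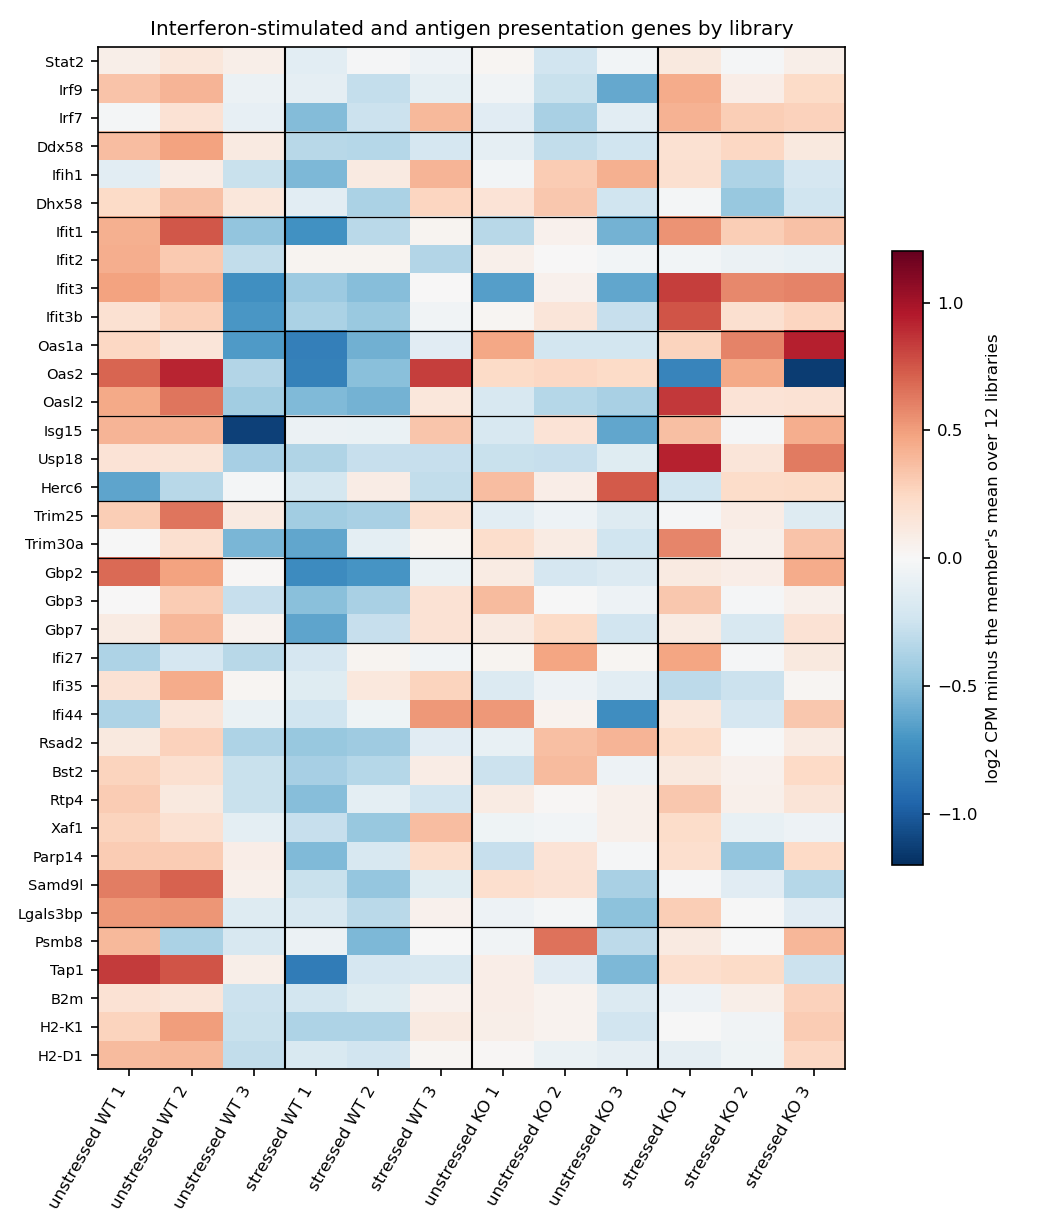
Level of each of the 36 members in each of the 12 libraries, as log2 CPM minus the member's mean over all libraries, with red above and blue below that mean. Black lines separate the 4 groups and the roles of the members. The columns of unstressed WT 1 and 2 and of stressed KO 1 are mostly red and that of stressed WT 1 mostly blue.

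Stress in WT mice was compared first. Ddx58, Samd9l, Gbp2 and Tap1 were lower in stressed than in unstressed WT, with fold changes of 0.51 to 0.652, and no member was higher past the threshold. These are 4 of 36 members (11.1%), against 21.9% of all genes tested in either direction (12.1% lower, 9.71% higher), so the share of members called was no larger than the background. At an unadjusted p under 0.05, 7 members (19.4%) were lower, against 19.8% of all genes, and in 6 members (16.7%) the stressed WT libraries were all below the unstressed ones, against 17.2% of all genes. The median log2 difference over the members was -0.31, against 0 over all genes, and 31 of 36 members (86.1%) were below 0, against 49.7% of all genes.

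Ddx58 encodes RIG-I, a cytoplasmic sensor of viral RNA. It lies at chr4:40203773-40239828 on the minus strand (positions here and below from GENCODE, build GRCm38). With libraries in the order 1 to 3, its level was 6.02, 6.5 and 5.03 CPM across unstressed WT, 3.7, 3.68 and 4.06 across stressed WT, 4.31, 3.79 and 3.94 across unstressed KO and 5.29, 5.54 and 5.06 across stressed KO. Unstressed WT and stressed KO were high, the other groups were low, and the high groups did not overlap the low ones. Ddx58 fell by 0.62 ± 0.13 on the log2 scale with stress in WT (edgeR adjusted p = 0.0147).

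Gbp2 (chr3:142620602-142638008, plus strand), an interferon-induced GTPase that attacks intracellular parasites and bacteria, was measured at 3.92, 3.43 and 2.48 CPM across unstressed WT, 1.45, 1.5 and 2.32 across stressed WT, 2.63, 2.14 and 2.19 across unstressed KO and 2.65, 2.6 and 3.33 across stressed KO. Libraries 1 and 2 of stressed WT were the lowest of all 12, and the WT groups did not overlap. Gbp2 fell by 0.89 ± 0.23 (edgeR adjusted p = 0.0238).

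Samd9l (chr6:3372257-3399572, minus strand), which restrains cell growth and viral replication, stood at 9.53, 10.2 and 6.52 CPM across unstressed WT, 5.19, 4.54 and 5.63 across stressed WT, 7.17, 7.03 and 4.78 across unstressed KO and 6.2, 5.69 and 4.93 across stressed KO. Only libraries 1 and 2 of unstressed WT exceeded 7.17 CPM, and the WT groups did not overlap. Samd9l fell by 0.77 ± 0.20 (edgeR adjusted p = 0.0223).

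Tap1 (chr17:34187553-34197225, plus strand) encodes a subunit of the transporter that carries peptides to class I MHC molecules. Its levels were 4.4, 4.14 and 2.58 CPM across unstressed WT, 1.37, 2.14 and 2.15 across stressed WT, 2.59, 2.24 and 1.69 across unstressed KO and 2.82, 2.89 and 2.05 across stressed KO. Libraries 1 and 2 of unstressed WT were again above the remaining 10, while library 3 lay within the range of the KO groups. Tap1 fell by 0.97 ± 0.26 (edgeR adjusted p = 0.0251).

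Without libraries 1 and 2, unstressed WT is a single library that the fit assumes to vary like the other groups. The log2 differences of the 4 called members were then smaller but stayed negative. They were -0.40 ± 0.18 for Ddx58, -0.49 ± 0.30 for Gbp2, -0.35 ± 0.23 for Samd9l and -0.45 ± 0.33 for Tap1. The members' median was then 0.07, and 21 of the 36 members changed sign, among them Ifit3 (from -0.44 to 0.45), Ifit1 (from -0.63 to 0.17) and H2-D1 (from -0.31 to 0.18). Without library 3 instead, 13 members (36.1%) were called lower, among them Ifit1, Ifit2, Ifit3, Irf9, H2-K1 and H2-D1, while 36.6% of all genes were called and 19.2% were called lower. Leaving out unstressed WT library 1 or 2 alone left 1 and 0 member calls, against 6.33% and 0% of all genes called. Leaving out stressed WT library 1 or 2 also left 1 and 0, against 13% and 0% of all genes, so calls fell for genes in general.

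**Figure D3:**
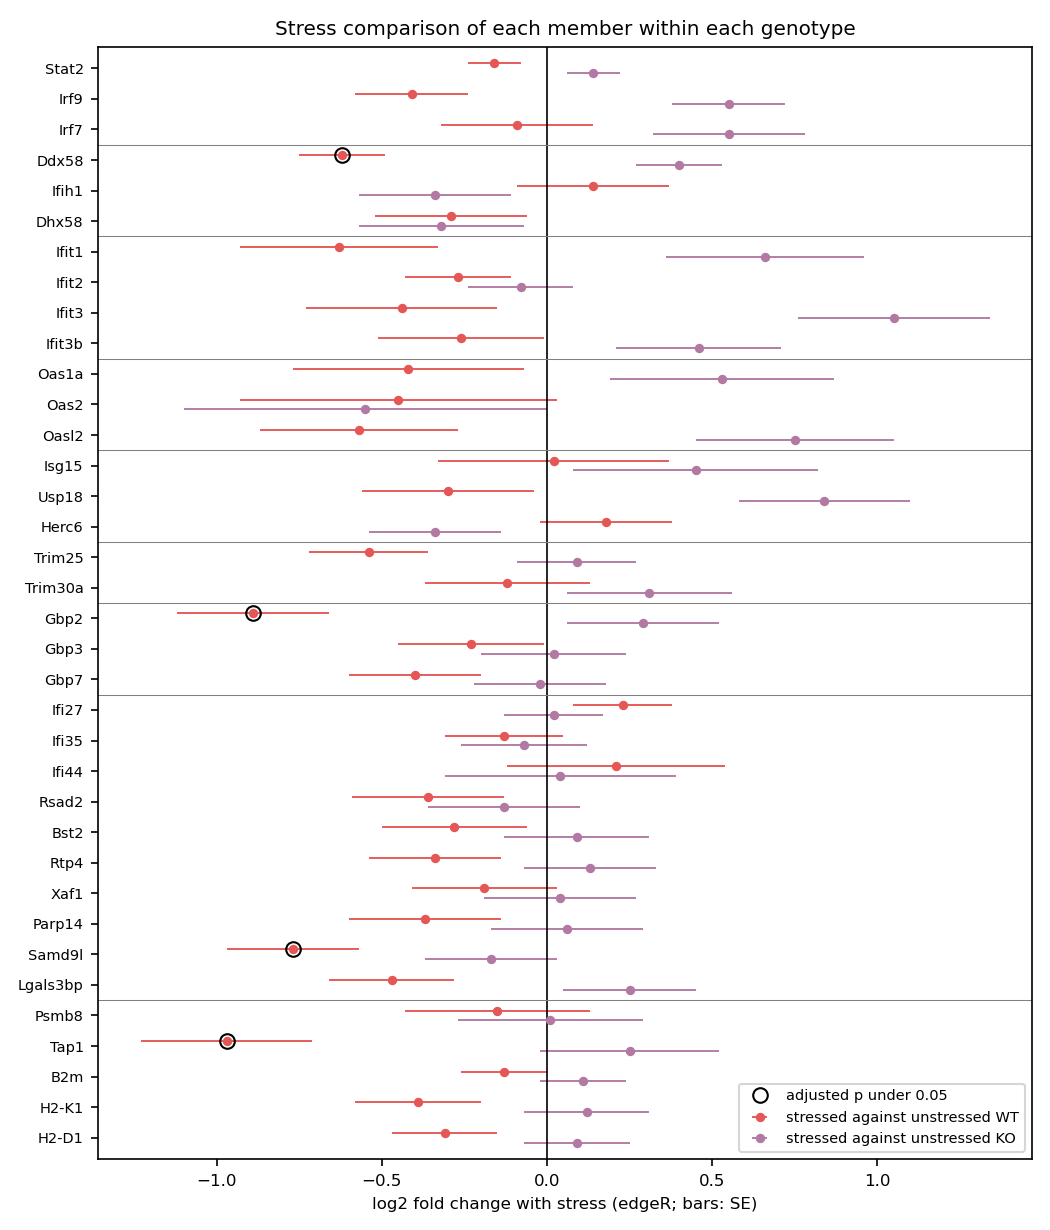
The log2 fold change with stress of each member, in WT (red) and in KO (purple), with standard errors from edgeR as bars and open circles around changes with an adjusted p under 0.05. The 4 circled members, Ddx58, Gbp2, Samd9l and Tap1, are lower with stress in WT, and no member is circled in KO, where Ifit3 has the highest value at 1.05.

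Within KO mice no member passed the threshold with stress. edgeR called 0 of 36 members, against 0.0197% of all genes, and DESeq2 called 0, against 0.364% of all genes. At an unadjusted p under 0.05, 6 members (16.7%) were higher and none was lower, against 4.23% of all genes higher and 4.97% lower. In 8 members (22.2%) every stressed KO library lay above every unstressed KO library, against 8.45% of all genes. These were Ifit3, Irf9, Usp18, Ddx58, Oasl2, Irf7, Ifit1 and Ifit3b. The median log2 difference over the 36 members was 0.10, against 0 over all genes, and 27 of 36 were above 0, against 49.1% of all genes. Without stressed KO library 1, the library with striatal markers, 3 members had an unadjusted p under 0.05. The share of all genes in that fit is not given here, so this count cannot show a change particular to the members.

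Ifit3 (chr19:34583531-34588731, plus strand), whose human counterpart helps IFIT1 bind viral RNA, had the highest log2 difference. It stood at 8.84, 8.46 and 3.81 CPM across unstressed WT, 4.7, 4.45 and 6.38 across stressed WT, 4, 6.57 and 4.13 across unstressed KO and 11.3, 9.45 and 9.61 across stressed KO. The stressed KO libraries were the highest of all 12 and overlapped no other group. The log2 difference with stress in KO was 1.05 ± 0.29, which did not pass (edgeR adjusted p = 0.47), and it was 0.96 without stressed KO library 1.

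Since Ifit3 and Ifit3b share reads, their levels were also added together. The sum was 13.4, 13.3 and 6.26 CPM across unstressed WT, 7.76, 7.36 and 10.2 across stressed WT, 8.05, 11 and 7.42 across unstressed KO and 18, 14 and 14.3 across stressed KO. The stressed KO libraries stayed above all others whichever gene the reads were given to, with a mean of 15.4 ± 2.22 CPM (SD, n = 3) against 8.81 ± 1.88 in unstressed KO.

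Irf9 (chr14:55603571-55610030, plus strand), the DNA-binding partner of Stat2, was at 8.98, 9.38 and 6.76 CPM across unstressed WT, 6.55, 5.82 and 6.52 across stressed WT, 6.86, 5.89 and 4.63 across unstressed KO and 9.61, 7.47 and 8.32 across stressed KO. The pattern of the groups was that of Ddx58, with unstressed WT and stressed KO high, and neither overlapped stressed WT. With stress in KO the log2 difference was 0.55 ± 0.17 (edgeR adjusted p = 0.47), and it was 0.44 without stressed KO library 1.

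Usp18 (chr6:121245906-121270917, plus strand) removes the modifier ISG15 from proteins and damps signalling at the type I interferon receptor. It was at 0.929, 0.92 and 0.629 CPM across unstressed WT, 0.643, 0.685 and 0.682 across stressed WT, 0.686, 0.684 and 0.747 across unstressed KO and 1.57, 0.916 and 1.28 across stressed KO. Its counts were small, between 15 and 45 per library. Stressed KO overlapped unstressed WT through library 2 but not the other groups, with a log2 difference of 0.84 ± 0.26 with stress in KO (edgeR adjusted p = 0.47), or 0.62 without stressed KO library 1.

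**Figure D4:**
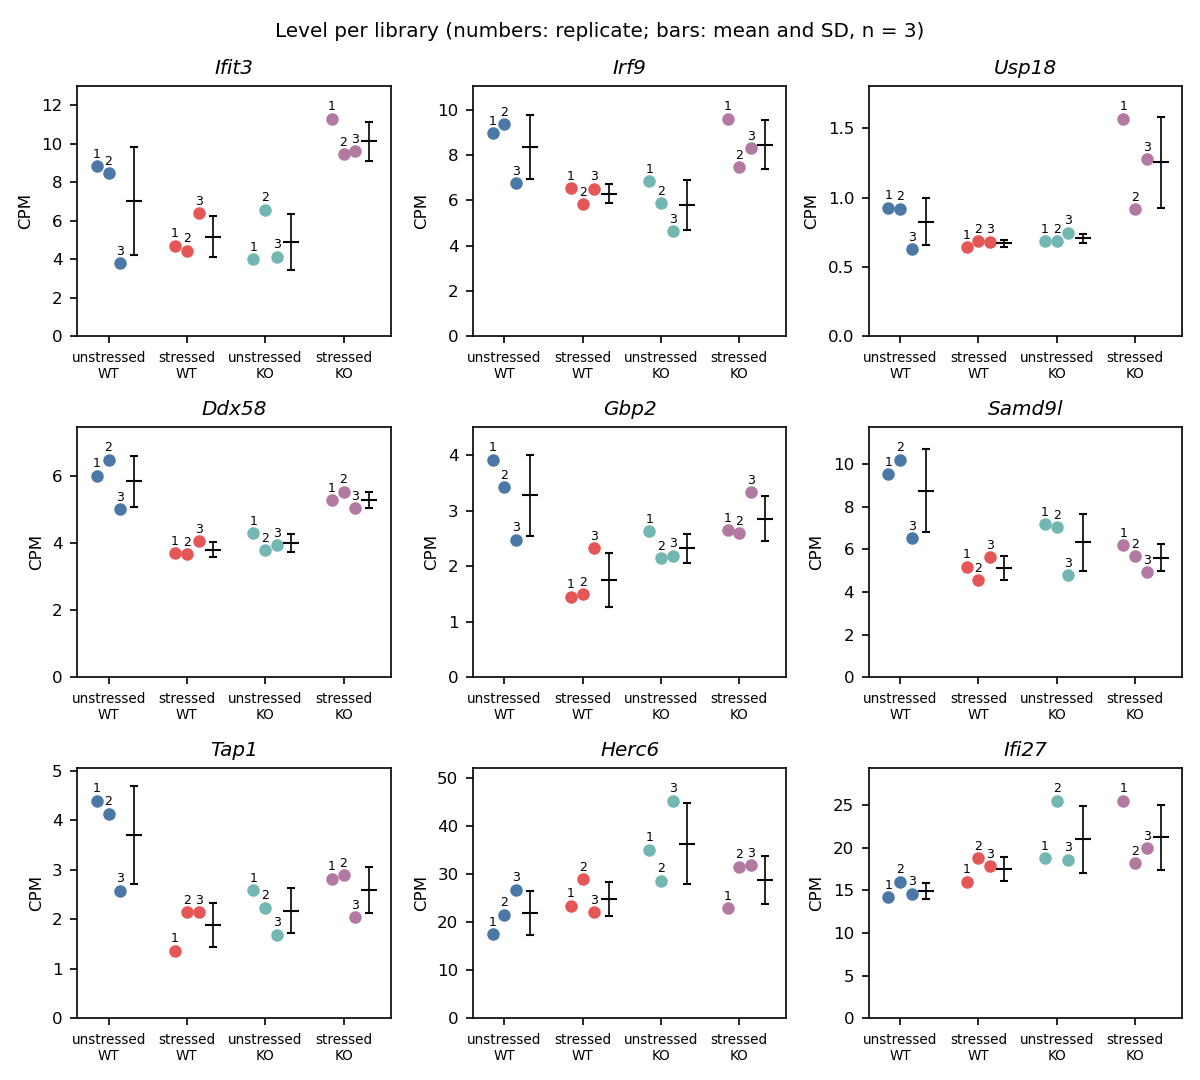
Level in CPM of 9 members in each library. Points are libraries numbered by replicate, and black bars are the group mean and SD of 3 libraries. Ifit3, Irf9, Usp18 and Ddx58 are high in stressed KO against unstressed KO, Gbp2, Samd9l and Tap1 are low in stressed WT, and Herc6 and Ifi27 are lowest on average in unstressed WT.

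The genotypes were then compared without stress. Herc6 and Ifi27 were higher in unstressed KO than in unstressed WT, and Ddx58 and Irf9 were lower. These are 4 of 36 members (11.1%), against 23.2% of all genes (11.2% higher, 12.1% lower), again no larger than the background. At an unadjusted p under 0.05, 7 members (19.4%) were lower, against 19.8% of all genes. The median log2 difference over the members was -0.20, against 0 over all genes, and 27 of 36 were below 0, against 49.4% of all genes. This comparison shares its unstressed WT libraries with that of stress in WT, so the comparisons are not independent.

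Herc6 (chr6:57581000-57664632, plus strand), the main ligase that attaches ISG15 to proteins in mice, stood at 17.5, 21.5 and 26.7 CPM across unstressed WT, 23.4, 28.9 and 22.1 across stressed WT, 35, 28.6 and 45.2 across unstressed KO and 22.9, 31.5 and 31.8 across stressed KO. All unstressed KO libraries were above all unstressed WT libraries, but the stressed groups overlapped. Herc6 rose by 0.73 ± 0.20 on the log2 scale in unstressed KO (edgeR adjusted p = 0.0244). Its highest library was unstressed KO 3. Of its 50-base windows 12% are shared with Gm45193, although its counts were whole.

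Ifi27 (chr12:103434211-103440239, plus strand) was at 14.2, 16 and 14.6 CPM across unstressed WT, 16, 18.8 and 17.8 across stressed WT, 18.8, 25.5 and 18.6 across unstressed KO and 25.5, 18.2 and 19.9 across stressed KO. Unstressed WT lay below both KO groups without overlap, and stressed WT overlapped both. It was higher in unstressed KO by 0.49 ± 0.15 (edgeR adjusted p = 0.034). Averaged over stress the log2 difference was 0.38 ± 0.10, the only one of 36 members called (2.78%, against 6.33% of all genes; edgeR adjusted p = 0.0486).

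Ddx58 was lower in unstressed KO than in unstressed WT, a log2 difference of -0.54 ± 0.13 (edgeR adjusted p = 0.0173), and Irf9 by -0.53 ± 0.17 (edgeR adjusted p = 0.0432). The Irf9 groups touched, with unstressed KO 1 at 6.86 CPM above unstressed WT 3 at 6.76 CPM. The comparison was also made with unstressed WT reduced to library 3. The log2 differences of the called members were then -0.33 ± 0.18 for Ddx58, -0.22 ± 0.21 for Irf9, 0.44 ± 0.26 for Herc6 and 0.52 ± 0.21 for Ifi27. All had the same direction as before, while the members' median moved to 0.22 and 15 of the 36 members changed sign. Leaving out unstressed WT library 1 or 2 alone gave 0 member calls, against 10.1% and 1.53% of all genes. Leaving out library 3 of that group gave 14 (38.9%, against 37.3% of all genes). Of the unstressed KO libraries, leaving out library 2 left 1 member call, Herc6, against 6.4% of all genes. Leaving out unstressed KO library 3 left 2, against 12.4% of all genes. The call of Ifi27 averaged over stress was lost in 11 of the 12 fits that left out 1 library.

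Genotypes were compared under stress without using the unstressed WT libraries for the group means. edgeR and DESeq2 each called 0 of 36 members, against 0.25% of all genes with edgeR and 1.75% with DESeq2. At an unadjusted p under 0.05, 11 members (30.6%) were higher in stressed KO than in stressed WT and none was lower, against 6.55% of all genes higher and 6.43% lower. In 12 members (33.3%) every stressed KO library lay above every stressed WT library, against 10.8% of all genes, and in none did it lie below, against 11.3%. The median log2 difference was 0.28, against 0 over all genes, and 31 of 36 members were above 0, against 49.3% of all genes. The count at an unadjusted p under 0.05 went from 11 to 5 without stressed KO library 1 and to 7 without stressed KO library 3. It went to 6 and 5 without stressed WT library 1 or 2, and to 15 without stressed WT library 3. The shares of all genes in these fits are not given here, so these counts cannot show a change particular to the members. The comparison shares its stressed WT and stressed KO libraries with the 2 stress comparisons.

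The 3 smallest p belonged to Ddx58, Usp18 and Ifit3. Their log2 differences were 0.47 ± 0.13, 0.91 ± 0.26 and 0.96 ± 0.29, with edgeR adjusted p of 0.167, 0.181 and 0.202. Without stressed KO library 1 that of Usp18 was 0.69. The highest log2 difference, 1.06 ± 0.35, was that of Oas1a, an oligoadenylate synthetase at chr5:120896256-120907521 on the minus strand (edgeR adjusted p = 0.228). Oas1a was at 0.757, 0.705 and 0.397 CPM across unstressed WT, 0.362, 0.428 and 0.58 across stressed WT, 0.877, 0.548 and 0.548 across unstressed KO and 0.766, 0.964 and 1.22 across stressed KO. Stressed KO lay above both WT groups and overlapped unstressed KO. Its estimated counts were between 8.6 and 23.45 per library with decimals in every library.

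Members with an ISRE core in the promoter window had a median log2 difference of 0.44 between stressed KO and stressed WT, and members without one had 0.21, with 15 members each. With stress in KO these medians were 0.29 and 0.09, and with stress in WT they were -0.28 and -0.31. Between genotypes without stress they were -0.05 and -0.25. For the interaction the order was reversed, at 0.42 with a match and 0.51 without. Averaged over genotypes the stress medians were -0.01 and -0.1, and averaged over stress the genotype medians were 0.1 and -0.05. The ranges of both sets overlapped in all 7 comparisons, and a link to the ISRE was not tested.

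The interaction asked whether the stress difference in KO exceeded that in WT. edgeR called 0 of 36 members and 0% of all genes, although 28.5% of all genes had an unadjusted p under 0.05. Among the members 11 (30.6%) had one, all with a positive interaction, against 14.5% of all genes positive and 14% negative, and the median was 0.42 against -0.02. Ddx58 had the smallest p, with an interaction of 1.02 ± 0.19 (edgeR adjusted p = 0.0506), followed by Irf9 with 0.96 ± 0.24 (0.0577) and Ifit3 with 1.49 ± 0.41 (0.0664). DESeq2 called 6 members (16.7%, against 12.7% of all genes), Ddx58, Gbp2, Ifit3, Irf9, Oasl2 and Tap1, and Ddx58 alone passed in edgeR with DESeq2 size factors (adjusted p = 0.049) or without the filter on low counts (0.0489). Without unstressed WT libraries 1 and 2 the median interaction of the members was 0.04. Without library 3 of that group 14 members were called (38.9%, against 25% of all genes). Averaged over genotypes, edgeR called 0 members with stress, against 0.0395% of all genes. At an unadjusted p under 0.05, 1 member (2.78%), Samd9l, was lower, against 13% of all genes. Its edgeR log2 difference was -0.47 ± 0.14 (edgeR adjusted p = 0.0969). DESeq2 called Samd9l alone, 2.78% of the members against 8.13% of all genes.

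The IFIT proteins bind viral RNA or the initiation machinery of translation, and their 4 genes lie within 99 kb on chromosome 19. Ifit1 stood at 2.96, 3.71 and 1.59 CPM across unstressed WT, 1.33, 1.76 and 2.25 across stressed WT, 1.75, 2.28 and 1.49 across unstressed KO and 3.2, 2.7 and 2.82 across stressed KO. Stressed KO was above stressed WT and unstressed KO without overlap, and unstressed WT spanned both levels. Ifit3b was at 4.51, 4.84 and 2.45 CPM across unstressed WT, 3.06, 2.91 and 3.86 across stressed WT, 4.04, 4.38 and 3.29 across unstressed KO and 6.72, 4.53 and 4.74 across stressed KO. Its stressed KO libraries were likewise above those of stressed WT and unstressed KO, with a log2 difference with stress in KO of 0.46 ± 0.25. Ifit2, which lies in the same cluster, had whole counts, with group means of 18.9 and 15.7 CPM in WT and of 16.7 and 15.8 CPM in KO, unstressed before stressed. Its stressed KO libraries, at 15.6 to 16.2 CPM, lay just below those of unstressed KO, at 16.2 to 17.3 CPM.

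Isg15 is the ubiquitin-like modifier that Herc6 attaches and Usp18 removes. It was at 1.62, 1.62 and 0.563 CPM across unstressed WT, 1.17, 1.16 and 1.54 across stressed WT, 1.07, 1.37 and 0.797 across unstressed KO and 1.57, 1.21 and 1.66 across stressed KO. Library 3 of unstressed WT was more than 2 times below both others of its group, as it also was for Ifit3, and the groups overlapped in every comparison. No comparison of Isg15 passed, with log2 differences of 0.02 ± 0.35 with stress in WT and 0.45 ± 0.37 with stress in KO.

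Trim30a, a ligase of the tripartite motif family, was at 2.17, 2.48 and 1.49 CPM across unstressed WT, 1.41, 2.01 and 2.22 across stressed WT, 2.52, 2.33 and 1.84 across unstressed KO and 3.27, 2.27 and 2.75 across stressed KO. The stressed KO libraries were above the stressed WT libraries by a small margin, 2.27 against 2.22 CPM at the nearest. Trim25, which activates RIG-I, had whole counts, with its highest group mean in unstressed WT (8.53 CPM) against 5.86, 6.11 and 6.51 in stressed WT, unstressed KO and stressed KO. Its log2 difference with stress in WT was -0.54 ± 0.18 (edgeR adjusted p = 0.0503).

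Gbp3 and Gbp7 are neighbours of Gbp2 on chromosome 3. Gbp3 was at 3.82, 4.69 and 3.15 CPM across unstressed WT, 2.69, 2.91 and 4.3 across stressed WT, 4.96, 3.79 and 3.64 across unstressed KO and 4.77, 3.76 and 3.97 across stressed KO. Gbp7 was at 6.5, 8 and 6.26 CPM across unstressed WT, 3.9, 5.01 and 6.82 across stressed WT, 6.52, 7.12 and 5.18 across unstressed KO and 6.48, 5.3 and 6.85 across stressed KO. For both genes the groups overlapped in every comparison, and the log2 differences with stress in KO were 0.02 ± 0.22 and -0.02 ± 0.20.

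Among the class I heavy chains, H2-K1 was at 20.7, 24.3 and 14.3 CPM across unstressed WT, 13.3, 13.3 and 18.5 across stressed WT, 18.1, 17.7 and 14.7 across unstressed KO and 17.1, 16.7 and 21.3 across stressed KO. H2-D1 was at 39.8, 40.1 and 24.9 CPM across unstressed WT, 27, 26.2 and 31.2 across stressed WT, 31, 29 and 28.4 across unstressed KO and 28.4, 29.5 and 36.4 across stressed KO. In both genes unstressed WT libraries 1 and 2 were high, library 3 was the lowest or near the lowest, and all groups overlapped. B2m had group means of 59 ± 9.36 and 53.7 ± 5.26 CPM in WT and of 57.1 ± 5.04 and 61.7 ± 7.19 CPM in KO (SD, n = 3), unstressed before stressed. Psmb8, a catalytic subunit of the immunoproteasome, had means of 2.2 and 1.96 CPM in WT and of 2.49 and 2.52 CPM in KO. Apart from Tap1 with stress in WT, edgeR called no antigen presentation member in the 7 comparisons. DESeq2 also called Tap1 between genotypes without stress and in the interaction, where it called 25.7% and 12.7% of all genes.

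The other members are given by group means with both WT groups first, unstressed before stressed, and both KO groups next in the same order. Stat2 was at 26.2, 23.4, 23.2 and 25.5 CPM, and Irf7, which drives interferon transcription, was at 1.88, 1.75, 1.6 and 2.33 CPM. Of the RNA sensors, Ifih1 (MDA5) was at 5.24, 5.78, 6.65 and 5.2 CPM and Dhx58 (LGP2) at 1.25, 1.01, 1.13 and 0.904 CPM. In neither were unstressed WT and stressed KO both high, as they were for Ddx58, and with stress in KO their log2 differences were -0.34 ± 0.23 and -0.32 ± 0.25.

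Oasl2 was at 3.27, 2.19, 2.16 and 3.6 CPM, with the higher means in unstressed WT and stressed KO. In unstressed WT only libraries 1 and 2 were high, at 3.65 and 4.17 CPM. Library 3 of that group was at 1.99 CPM, below stressed WT 3 at 2.93 CPM. The highest Oasl2 library was stressed KO 1 at 4.8 CPM. Oas2 was at 0.605, 0.431, 0.499 and 0.338 CPM from 3 to 26 counts per library, so its differences were not detectable at this depth. Rsad2 (viperin) was at 1.53, 1.19, 1.77 and 1.61 CPM, Bst2 (tetherin) at 2.42, 1.98, 2.35 and 2.51 CPM and Rtp4 at 1.75, 1.38, 1.74 and 1.89 CPM. In Rsad2 and Rtp4 the stressed KO libraries lay above the stressed WT libraries without overlap, and the log2 differences were 0.44 ± 0.23 and 0.46 ± 0.20.

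Lgals3bp, a secreted galectin-binding protein, was at 15.6, 11.3, 11 and 13 CPM, and Parp14, an ADP-ribosyltransferase, at 4.02, 3.11, 3.35 and 3.48 CPM. Xaf1 was at 2.18, 1.9, 2 and 2.04 CPM, Ifi35 at 2.29, 2.09, 1.81 and 1.73 CPM and Ifi44 at 0.627, 0.72, 0.679 and 0.714 CPM. None of these 5 passed in any comparison. Dhx58, Trim25, Ifi35, Xaf1 and Lgals3bp lie on chromosome 11 with Cacna1g, between 5.4 and 23.9 Mb from it, and none of them was called in a genotype comparison.

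Levels of the members also differed between libraries of the same group. Libraries 1 and 2 of unstressed WT were both above library 3 in 31 of 36 members, against 42.4% of all genes, with a median ratio of 1.41. The member score, the mean log2 CPM of the 36 members relative to their means, was 0.23, 0.31 and -0.22 across unstressed WT, -0.37, -0.26 and 0.06 across stressed WT, 0, 0.04 and -0.17 across unstressed KO and 0.21, 0.04 and 0.14 across stressed KO. Within unstressed WT it thus ran from -0.22 to 0.31, against -0.37 to 0.31 over all 12 libraries. Over the 27 members with whole counts the score was 0.23, 0.29 and -0.16 for unstressed WT and -0.33, -0.24 and 0.06 for stressed WT, followed by -0.01, 0.04 and -0.13 for unstressed KO and 0.16, 0 and 0.07 for stressed KO. Stressed WT 1 was the lowest library for 15 members, unstressed WT 2 the highest for 12 and stressed KO 1 the highest for 8. The median ratio of the highest to the lowest library within a group was 1.51 for the members in unstressed WT, against 1.24 for all genes. The members' ratio exceeded that of all genes in the other 3 groups too, with 1.42 against 1.17 in stressed WT and 1.29 against 1.17 in stressed KO, and a ratio for unstressed KO between these.

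Between the WT groups, several marker scores of other cell types moved with the member score, and their part in the differences was not tested. The endothelial score was 0.26, 0.44 and 0.12 in unstressed WT against -0.38, -0.29 and 0.24 in stressed WT. The meningeal fibroblast score was 1.61, 1.9 and 0.45 in unstressed WT against -1.13, -0.89 and -0.04 in stressed WT, from summed levels of 120 to 312 and 40.8 to 94.4 CPM. Mural cells, which surround vessels, scored 0.49, 0.5 and 0.16 in unstressed WT against -0.86, -0.47 and 0.2 in stressed WT. For astrocytes the scores were 0.28, 0.37 and 0 against -0.12, -0.2 and 0.07, with 3 of 10 markers called lower. Oligodendrocyte scores differed in the opposite direction, from -0.23, -0.48 and -0.37 to 0.28, 0.42 and 1.01, with 8 of 10 markers called higher. Over all 12 libraries the microglial score stayed within -0.22 to 0.36, from 14 of 14 markers summing to 478 to 648 CPM. The endothelial score was -0.21, 0.02 and 0.04 for stressed KO and 0.08, -0.18 and -0.15 for unstressed KO, so these overlapped. Astrocyte scores overlapped too, at -0.36, -0.14 and -0.13 for stressed KO and 0.04, 0.5 and -0.32 for unstressed KO. For meningeal fibroblasts they were -1.2, 0.24 and 0.12 against -0.28, 0.18 and -0.96. Stressed KO 1, with the highest member score of the KO libraries, thus had low scores for these cell types. The blood cell score was 0.64, 0.98 and 0.84 in stressed KO, above the 0.56, -1.52 and -0.78 of unstressed KO and the -0.79, -0.48 and -0.06 of stressed WT. Summed blood cell markers reached 95.6 to 131 CPM in stressed KO, 52 to 89.7 in unstressed KO and 66.6 to 110 in stressed WT. Of 14 blood cell markers 6 were tested, 4 of them haemoglobin genes that share reads, and the neutrophil genes S100a8, S100a9, Ngp and Camp had at most 4 counts in a library. The tested markers did not all follow the score. Ptprc was at 2.47, 2.84 and 2.75 CPM in stressed KO, below the 3.89, 3.83 and 3.04 of unstressed KO. Hba-a2 overlapped, at 51, 23.6 and 39.1 CPM in stressed KO and 18.6, 80.5 and 24.4 in unstressed KO. Hba-a1 and Hbb-bs were at 0 in unstressed KO 2, the library with a score of -1.52.

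**Figure D5:**
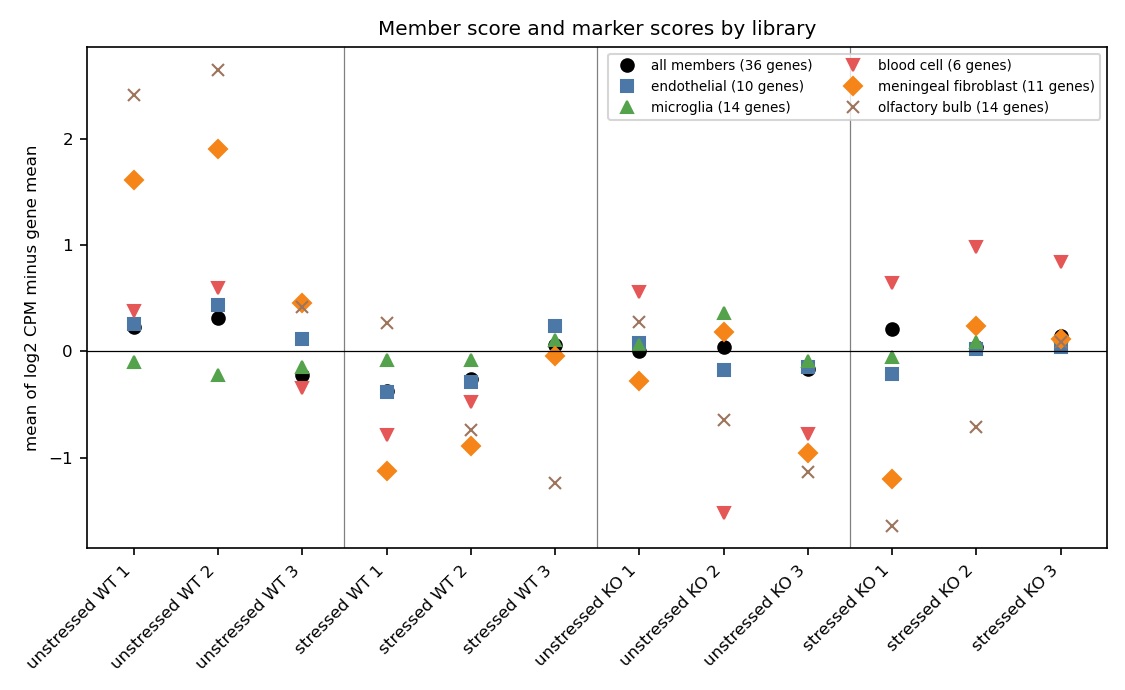
Score of the 36 members (black circles) and of marker lists for other cell types and regions in each library, as the mean over genes of log2 CPM minus the gene's mean over 12 libraries. The members and the endothelial markers are both high in unstressed WT 1 and 2 and both low in stressed WT 1 and 2. The blood cell markers are at 0.64 to 0.98 in stressed KO.

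Genes of the same pathway outside the members came from lists of receptors, kinases, inducers, further targets and antigen presentation genes, of which 100 of 120 in the table were tested. With stress in WT 4 of these rose and 12 fell, 16% against 21.9% of all genes, and without stress 6 were higher and 8 lower in KO than in WT, 14% against 23.2%. Averaged over stress 4 were higher and 2 lower, 6% against 6.33%. With unstressed WT reduced to library 3, edgeR called 0 of these genes in each of the 3 comparisons, although none of the called genes changed sign. Psmb10, for example, had a log2 difference with stress in WT of 0.61 ± 0.09 in the full fit and 0.50 ± 0.14 in this one, and Gbp6 of -2.03 ± 0.42 and -0.81 ± 0.43. Others shrank more, among them H2-Aa (from -1.96 to -0.29), H2-Eb1 (from -1.40 to -0.27) and Iigp1 (from -1.12 to -0.23). Erap1 went from -0.50 to -0.11, Jak2 from -0.36 to -0.07 and Ifngr2 from 0.49 to 0.15, while Pdia3 stayed near its value (0.22 and 0.23). The values of these genes below are from the full fit. The 16 calls with stress in WT became 40 without unstressed WT library 3, 5 without library 1 and 0 without library 2. They became 6 and 0 without stressed WT library 1 or 2. In the same order, 36.6%, 6.33%, 0%, 13% and 0% of all genes were called. edgeR called none with stress in KO, with genotype under stress or in the interaction, while 2, 16 and 24 had an unadjusted p under 0.05. With stress in KO these were 1% higher and 1% lower, against 4.23% and 4.97% of all genes. With genotype under stress they were 13% and 3%, against 6.55% and 6.43%. In the interaction they were 24%, against 28.5%. DESeq2 called 0, 2 and 9 pathway genes in these comparisons, against 0.364%, 1.75% and 12.7% of all genes. Of 44 further interferon-stimulated genes, 10 had one in the comparison of stressed KO with stressed WT (18.2% higher and 4.55% lower, against 6.55% and 6.43% of all genes), with a median of 0.37. With stress in KO 2 of the 44 had one, with a median of 0.18.

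Upstream of the members, Ifngr2, a subunit of the interferon gamma receptor, rose with stress in WT (0.49 ± 0.13, edgeR adjusted p = 0.0246). Stat3, a transcription factor of cytokine signalling, fell (-0.52 ± 0.10, edgeR adjusted p = 0.0133). Irf3, which induces interferon after sensing of viral nucleic acid, also fell (-0.46 ± 0.14, edgeR adjusted p = 0.0376), as did the kinase genes Ikbke (-1.16 ± 0.28, 0.0197) and Jak2 (-0.36 ± 0.12, 0.0445). Stat3 was at 76.8, 74.8 and 55.7 CPM in unstressed WT and at 44.9 to 51 CPM in all other libraries. Irf3 was at 17.8, 17.1 and 12.7 CPM in unstressed WT and at 9.17 to 12.7 CPM elsewhere. Unstressed WT libraries 1 and 2 thus led here as they did for the members. Without stress, Stat3 (-0.57), Irf3 (-0.63), Irf2 (-0.30) and Tyk2 (-0.33) were lower in KO than in WT, and Ifngr2 was higher (0.44).

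Among further targets, Gbp6 (-2.03 ± 0.42, edgeR adjusted p = 0.0142) and Iigp1 (-1.12 ± 0.35, 0.0427), both interferon-induced GTPases, fell with stress in WT. Gbp6 was also lower in unstressed KO than in unstressed WT (-1.23), where Adar, an RNA-editing enzyme, was lower (-0.28) and Cmpk2 higher (0.31). Averaged over stress, Adar was lower in KO (-0.31 ± 0.06, edgeR adjusted p = 0.0202), Stat3 was lower (-0.32) and Phf11d was higher (1.04). Gbp6 and Phf11d have decimals in at least 11 libraries and are uncertain. Phf11d also had few counts, at 0.161 to 0.375 CPM in the WT libraries.

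Other antigen presentation genes changed in both directions. Psmb10, a catalytic subunit of the immunoproteasome, rose with stress in WT (0.61 ± 0.09, edgeR adjusted p = 0.0107) and was higher in unstressed KO than in unstressed WT (0.70 ± 0.09, 0.00503) and averaged over stress (0.34 ± 0.07, 0.02). It was at 20.3, 19.7 and 22.5 CPM in unstressed WT and at 28.2 to 37.4 CPM in the other 9 libraries, so that here all 3 unstressed WT libraries were below the rest. The class I-like genes H2-T23 (0.67 with stress in WT, 0.91 in unstressed KO, 0.50 averaged over stress) and H2-Q7 (1.52 in unstressed KO and averaged over stress) were higher, and H2-Q4 fell with stress in WT (-0.91). These 3 share sequence with other class I genes, have decimals in at least 11 libraries and are uncertain. H2-Q7 also rests on few counts, at 0.0682 to 0.275 CPM in the WT libraries, where 3 counts are 0.092 to 0.128 CPM. The peptide-loading gene Tapbp (-0.52) and the peptide trimmer Erap1 (-0.50) fell with stress in WT, and Pdia3 (0.22) rose. Without stress, Tapbp was lower in KO than in WT (-0.64) and Pdia3 higher (0.24).

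The class II genes H2-Aa (-1.96 ± 0.60, edgeR adjusted p = 0.0394), H2-Ab1 (-1.81 ± 0.55, 0.0377) and H2-Eb1 (-1.40 ± 0.42, 0.0367), which present peptides to helper T cells, fell with stress in WT. H2-Aa was at 2.55, 2.02 and 0.53 CPM in unstressed WT against 0.281, 0.385 and 0.614 in stressed WT, where library 3 of unstressed WT lay within the stressed range. The invariant chain gene Cd74 was at 7.26, 5.86 and 2.02 CPM in unstressed WT against 1.25, 1.28 and 2.63 in stressed WT, with a log2 difference of -1.53 ± 0.51 (edgeR adjusted p = 0.0518). The class II score of these libraries was highest where the meningeal fibroblast score was highest, in unstressed WT 1 and 2.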

How the data were processed

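The values that the authors deposited are estimated counts for each gene symbol, one column per library, without scaling. The tools named in the submitters' processing notes are STAR 2.7.9a, Trim Galore 0.6.6, DESeq2 1.36.0 and RSEM 1.3.1, with build mm10. Sources used here name no annotation and no strand setting. Per the labels' protocols, the library kit keeps strand.

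Counts were rounded and scaled with TMM factors. Genes with low counts were removed with filterByExpr (minimum count 10, minimum total 15). Log2 CPM used a prior count of 2. All 7 contrasts were tested by quasi-likelihood in edgeR, with 4 group means over the 12 libraries (8 residual degrees of freedom), two-sided, with Benjamini-Hochberg adjustment over 15199 genes and a threshold of 0.05. A permutation test of 3 against 3 libraries cannot go below 0.1 and was not used. Versions were sva 3.50.0, DESeq2 1.42.0, limma 3.58.1 and edgeR 4.0.16 under R 4.3.3. Exon lengths, positions and transcript windows came from GENCODE mouse release 21 (GRCm38) and promoters from RefSeq.

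The members, the pathway and marker lists and the tests were chosen with earlier results of these data known. Values of all 12 libraries are given for members that passed, were among the 3 smallest p of a comparison, had decimals in at least 6 libraries, or had 1 library over 2 times away from both others of its group at 1 CPM or more. Pathway genes are named where they passed, apart from 1 that is counted but not reported here by name, and Cd74 was named after its values were seen. The per-library values of Stat3, Irf3, Psmb10, H2-Aa and Cd74 and the sum of Ifit3 and Ifit3b were likewise chosen after values were seen. No libraries of a group agreed within sampling noise (chi-square per degree of freedom 4.9 to 71.1). Precision is limited by depth, from 15469590 to 31082240 counts per library, and limits from 3 counts cover counting error only.

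On simulated counts with known changes, 2-fold changes were recovered in 77.6% of 49 genes for stress in WT (15105 genes), 75.5% of 49 for stress in KO (15110 genes) and 82% of 50 for genotype with stress (15089 genes). For the interaction 52% of 50 were recovered (15103 genes). At 1.5-fold the shares were 42.9%, 52.1%, 38% and 12% in the same order. The simulated counts were independent around 1 mean per gene, without the shifts between libraries seen here. Changed genes were drawn from all levels, so these shares do not give the sensitivity for the members. Alternatives were DESeq2 size factors, no filter, DESeq2, only the groups compared, a replicate block, 1 surrogate variable, and leaving out libraries.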

Additional observations from a re-analysis of the deposited data

How the results depend on the processing

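Without unstressed WT libraries 1 and 2, the genes called were 0 for stress in WT, 18 for genotype without stress, 82 for genotype with stress, 1 for stress averaged and 78 for genotype averaged, and the members called were 0 for stress in WT, genotype without stress and genotype averaged. With 1 surrogate variable the genes called were 0, 15, 148, 1 and 192 in the same order, and the members called were again 0 in those 3 comparisons. With only the groups compared in the fit, 1 gene and 0 members were called for stress in WT, and 18 genes and 0 members for genotype without stress. DESeq2 called 44 genes in the stress comparison of KO, 290 for genotype with stress, 1865 for the interaction, 1198 for stress averaged and 1902 for genotype averaged, with 6 members for the interaction, 1 for stress averaged and 2 for genotype averaged. In the interaction, DESeq2 size factors gave 198 genes and 1 member, and no filter gave 143 genes and 1 member. Without the filter, 0 members were called for genotype averaged. The cause of these shifts was not tested. No member that was called, or had one of the 3 smallest p of a comparison, changed sign there under an alternative. Without unstressed WT libraries 1 and 2, which leaves 1 library in that group, 21 of 36 members changed sign for stress in WT and 15 for genotype without stress, and the members' median became 0.07 and 0.22.

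Leaving out 1 library at a time, the genes called ranged from 0 to 5635 for stress in WT, 1 to 5 in the stress comparison of KO, 234 to 5729 between genotypes without stress, 19 to 116 between genotypes with stress, 0 to 3851 for the interaction, 2 to 3003 for stress averaged and 164 to 3308 for genotype averaged. The members called ranged from 0 to 13, 0 to 0, 0 to 14, 0 to 1, 0 to 14, 0 to 2 and 0 to 2 in the same order. Every upper end except that of stress in KO came from leaving out unstressed WT library 3, and the 1 member then called for genotype with stress was Ifit3.

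Libraries with the same replicate number did not consistently deviate together, with correlations from -0.25 to 0.36 over the pairs of groups. Between unstressed WT and unstressed KO they were 0.26, 0.05 and 0.36, while every other pair of groups had a negative value. With 3 libraries per group these correlations cannot decide whether the numbers pair libraries. The replicate block gave 25 genes called for stress averaged and 0 members for genotype averaged, where Ifi27 had an edgeR adjusted p of 0.0629, and with it 10 pathway genes in place of 16 were called for stress in WT. No other count of genes or members called moved by over 1.5 times under the block. The choice between TMM and DESeq2 size factors moved the median of all genes by between -0.004 and 0.002 on the log2 scale. Depth limits Oas2, Ifi44 and Oas1a most, with at most 26, 28 and 23.45 counts in a library.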
